A study of Saccharomyces cerevisiae with 2 samples.

Results

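Nuclear tRNAs that carry an amino acid other than serine or leucine were examined in CRAC libraries of the yeast Saccharomyces cerevisiae. CRAC cross-links a protein to RNA with UV light in living cells, purifies the protein and sequences the RNA fragments that come with it. The tested strain expressed Sni445 from its own chromosomal locus with a C-terminal HTP tag, a fusion of His residues, a TEV protease site and ProtA, and the control was a wild-type strain without a tag. Both strains were grown in YNB medium lacking tryptophan with glucose to an optical density of 0.6, irradiated for 100 s, purified in consecutive steps, and their cDNA was amplified by 16 PCR cycles. Each strain gave 1 library, of 21867727 mapped reads with Sni445-HTP, against 12654405 in the control, so no value below has a replicate check. The intervals given treat each count as independent and hold no spread between libraries. PCR copies are not independent molecules, so intervals on reads are too narrow even for counting error. The library labels call the molecule genomic although their protocol describes cDNA made from RNA.

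The set was taken from the tRNA features of the count tables by name, leaving out serine, leucine and mitochondrial tRNAs, and 236 of 284 listed tRNA genes remained, out of 5758 features in all. Of these genes, 199 carried the amino acid letter and anticodon in their name. The other 37 had a genetic name such as SUF9, IMT1 or HSX1 and were placed by the anticodon of the gene of that name in the R64 reference genome. In the same way 8 genes named SUP proved to be serine or leucine tRNAs and were left out, with 578 reads in the Sni445-HTP library and 102653 reads in the control. The 236 genes formed 34 groups, 33 with a known anticodon for 18 amino acids, and tX(XXX), a single gene of undetermined specificity. Reads that match several gene copies had been placed at random by the authors, so counts were summed over the copies of an anticodon. All 236 genes had sense reads in the Sni445-HTP library and 234 in the control. No antisense read was counted on any tRNA gene.

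A tRNA is transcribed by RNA polymerase III, trimmed at both ends, spliced where its gene holds an intron, modified at many bases, and completed by CCA, which the yeast genes do not encode and an enzyme adds to the trimmed 3′ end. Abundant and tightly folded, tRNAs are common among the background RNAs of cross-linking experiments. Kre33, the RNA cytidine acetylase, acts on 18S rRNA with the guide snoRNAs snR4 and snR45, and on serine and leucine tRNAs with the adaptor Tan1, at a cytidine of the D-arm within CCG. In R64, CCG stood at bases 11 to 13 from the 5′ end in 39 of 39 serine and leucine genes and in 1 of the 236 other genes, tX(XXX)D.

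The sequences of the groups to which the results below return are given here from the R64 annotation (RefSeq), as the mature tRNA without intron and without CCA, 5′ to 3′ as DNA, with the anticodon in capitals. The arginine tRNAs tR(UCU) and tR(CCU) stood far apart in the comparison.
tR(UCU)B: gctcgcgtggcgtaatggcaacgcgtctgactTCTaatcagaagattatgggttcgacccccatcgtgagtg
tR(CCU), gene HSX1: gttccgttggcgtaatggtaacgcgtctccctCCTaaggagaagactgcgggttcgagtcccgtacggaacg
So did the glutamate tRNAs, although 67 of 72 aligned bases were identical between them.
tE(UUC)B: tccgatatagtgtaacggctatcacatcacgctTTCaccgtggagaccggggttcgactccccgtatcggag
tE(CUC)I: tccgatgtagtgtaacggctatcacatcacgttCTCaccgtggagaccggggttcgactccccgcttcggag
The tryptophan, valine and glutamine tRNAs below stood highest with Sni445-HTP relative to the control.
tW(CCA)J: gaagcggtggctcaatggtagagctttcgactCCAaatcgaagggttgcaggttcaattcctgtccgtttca
tV(CAC)H: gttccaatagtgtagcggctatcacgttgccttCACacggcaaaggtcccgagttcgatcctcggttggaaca
tQ(CUG), gene CDC65: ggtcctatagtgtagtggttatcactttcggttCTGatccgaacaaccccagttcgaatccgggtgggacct
Their genes lie in R64 at chrII:405878-405949 on the plus strand for tR(UCU)B, chrX:538555-538626 (plus) for HSX1, chrII:645167-645238 (plus) for tE(UUC)B, chrIX:197592-197663 (plus) for tE(CUC)I, chrX:415931-416036 (minus, with an intron) for tW(CCA)J, chrVIII:475706-475778 (minus) for tV(CAC)H and chrXIII:808246-808317 (minus) for CDC65.

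The share of the library on these tRNAs was far smaller with Sni445-HTP than in the control. The 236 genes held 14116 of 26984818 sense counts with Sni445-HTP, 0.0523% (exact Clopper-Pearson 95% interval 0.0515 to 0.0532), against 552838 of 22960662 in the control, 2.41% (2.40 to 2.41). The ratio of shares was 0.0217 (exact conditional 95% interval 0.0214 to 0.0221). By the label check, snR4 and snR45 took 47.4% and 32.1% of the Sni445-HTP sense counts, against 1.05% and 0.378% in the control. Sense counts outside snR4, snR45 and intergenic features made up 2.82% of the total with Sni445-HTP, against 91.9% in the control. Within these remaining counts, 761330 with Sni445-HTP, against 21105436 in the control, the tRNAs took 1.85% with Sni445-HTP, against 2.62% in the control, a ratio of 0.708 (0.696 to 0.720). This second ratio, called the remaining-count ratio below, leaves out the features that filled most of the Sni445-HTP library, and it is used where groups are compared. In distinct cDNAs, which count identical reads once per gene copy, the set summed to 4316 with Sni445-HTP, against 17178 in the control. The ratio of shares of all cDNAs was 0.626, and 0.619 by the copy with the most. Identical reads placed on several copies count on each, so cDNA sums over copies can exceed the number of distinct sequences. For tD(GUC) the control sum was 2082, with at most 149 on a copy.

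A comparison within the tRNAs does not depend on the library totals. For each read on a serine or leucine tRNA, the Sni445-HTP library held 6.62 reads on the other nuclear tRNAs and the control 2.27, an odds ratio of 2.92 (exact conditional 95% interval 2.79 to 3.06). Without tR(UCU), the group with most reads in both libraries, the values were 4.05 with Sni445-HTP, against 1.96 in the control, an odds ratio of 2.07 (1.97 to 2.17). The 39 serine and leucine genes themselves had 2132 reads with Sni445-HTP, against 243642 in the control. Their remaining-count ratio was 0.243, made up of 0.116 over the 18 serine genes and 0.568 over the 21 leucine genes, against 0.708 for the other nuclear tRNAs. The 6 listed copies of 5S rRNA, also made by RNA polymerase III, had 5261 reads with Sni445-HTP, against 276119 in the control, a remaining-count ratio of 0.528. SCR1, the RNA of the signal recognition particle, had 1613 reads with Sni445-HTP, against 73324 in the control, a ratio of 0.610. Without tR(UCU) the other nuclear tRNAs stood at 0.501. They, the leucine tRNAs, the 5S copies and SCR1 then all lay between 0.501 and 0.610, and the serine tRNAs lay below them. The odds ratios above were carried by the serine tRNAs. Against serine tRNAs alone the odds ratio was 6.11 (5.67 to 6.59), and 4.33 (4.01 to 4.67) without tR(UCU). Against leucine tRNAs alone it was 1.25 (1.18 to 1.32), and without tR(UCU) it turned to 0.883 (0.834 to 0.935).

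By group, each of the 33 anticodons had reads with Sni445-HTP, between 23 reads on tQ(CUG) and 5475 on tR(UCU). The control ranged between 0 reads on tV(CAC) and 75021 on tR(UCU). The 10 groups with most reads held 73.5% of the set with Sni445-HTP, against 69.5% in the control, and 6 groups were in both lists of 10, arginine tR(UCU), glutamate tE(UUC), aspartate tD(GUC), glycine tG(GCC), lysine tK(UUU) and proline tP(UGG). The list with Sni445-HTP was completed by tK(CUU), tW(CCA), tF(GAA) and tY(GUA). The list of the control was completed by arginine tR(CCU), asparagine tN(GUU), threonine tT(AGU) and isoleucine tI(AAU). Across the 34 groups the Spearman correlation of reads between the libraries was 0.763, and across the 33 groups with a known anticodon that of reads with gene number was 0.677 with Sni445-HTP, against 0.608 in the control. These are descriptions across groups, which share library, depth and gene copies.

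**Figure D1:**
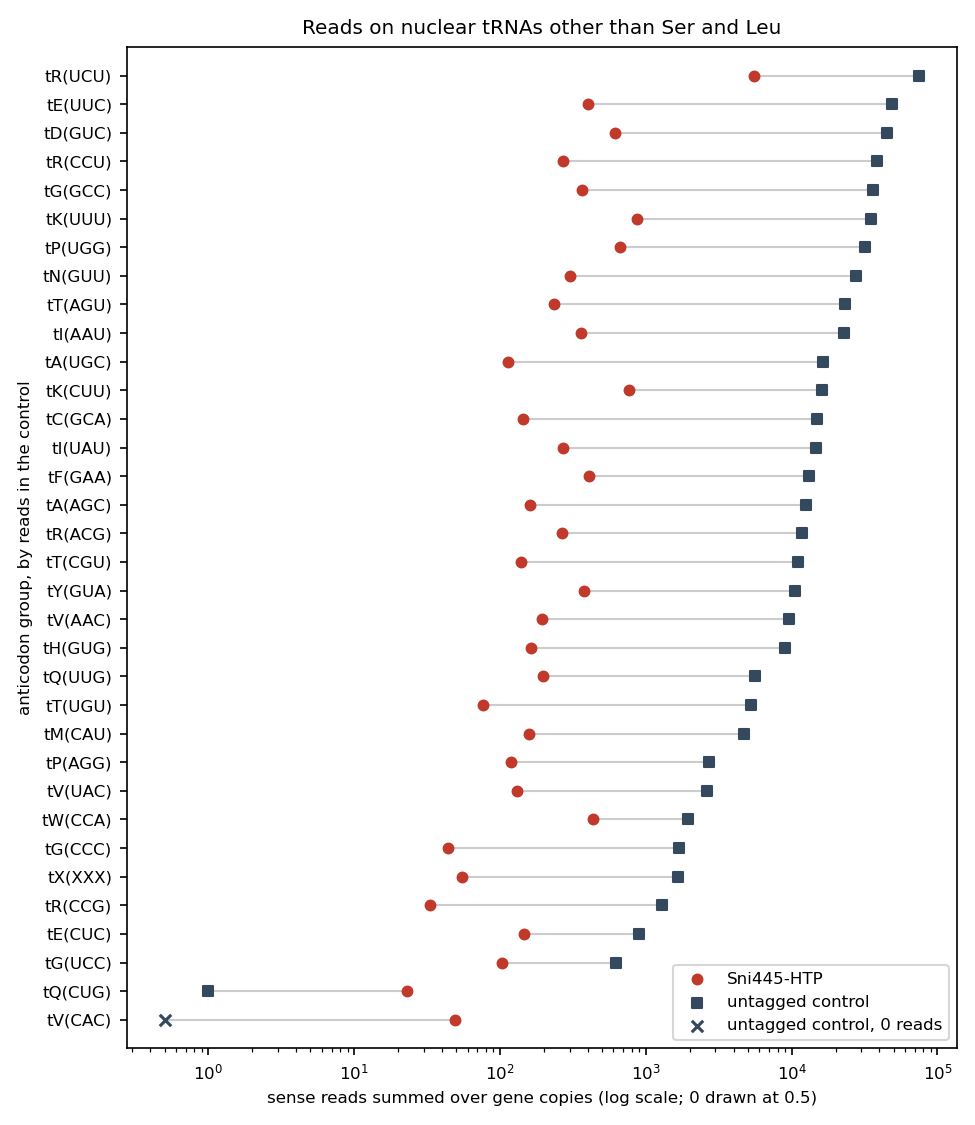
Sense reads on each of the 34 anticodon groups, on a log axis, summed over gene copies, with circles for Sni445-HTP and squares for the untagged control, ordered by the control. tR(UCU) leads both libraries, with 5475 reads with Sni445-HTP against 75021 in the control, and tV(CAC), with 49 reads with Sni445-HTP, has 0 in the control, drawn as a cross at 0.5.

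Over all sense counts, 32 of the 32 groups with at least 100 control reads had a share with Sni445-HTP at most a fraction of 0.25 of the control's. This is the background of the comparison, since 98.4% of all features with at least 100 control reads did so. None of the 28 groups with at least 100 reads with Sni445-HTP was at least 4 times higher, against 20.3% of all such features. Over the remaining counts, 3 of 32 groups were at least 4 times lower with Sni445-HTP, tA(UGC), tR(CCU) and tE(UUC), against 51.4% of all features. Another 3 of 28 were at least 4 times higher, tW(CCA), tG(UCC) and tE(CUC), against 27.6% of all features. Most groups therefore differed by less than 4-fold between the libraries over the remaining counts. Among features with reads in both libraries and at least 100 together, the median remaining-count ratio was 0.602 over 32 groups of the set and 0.368 over all 438 features, and it was above 1 for 7 of the 32 groups, 21.9%, and for 23.1% of the features.

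**Figure D2:**
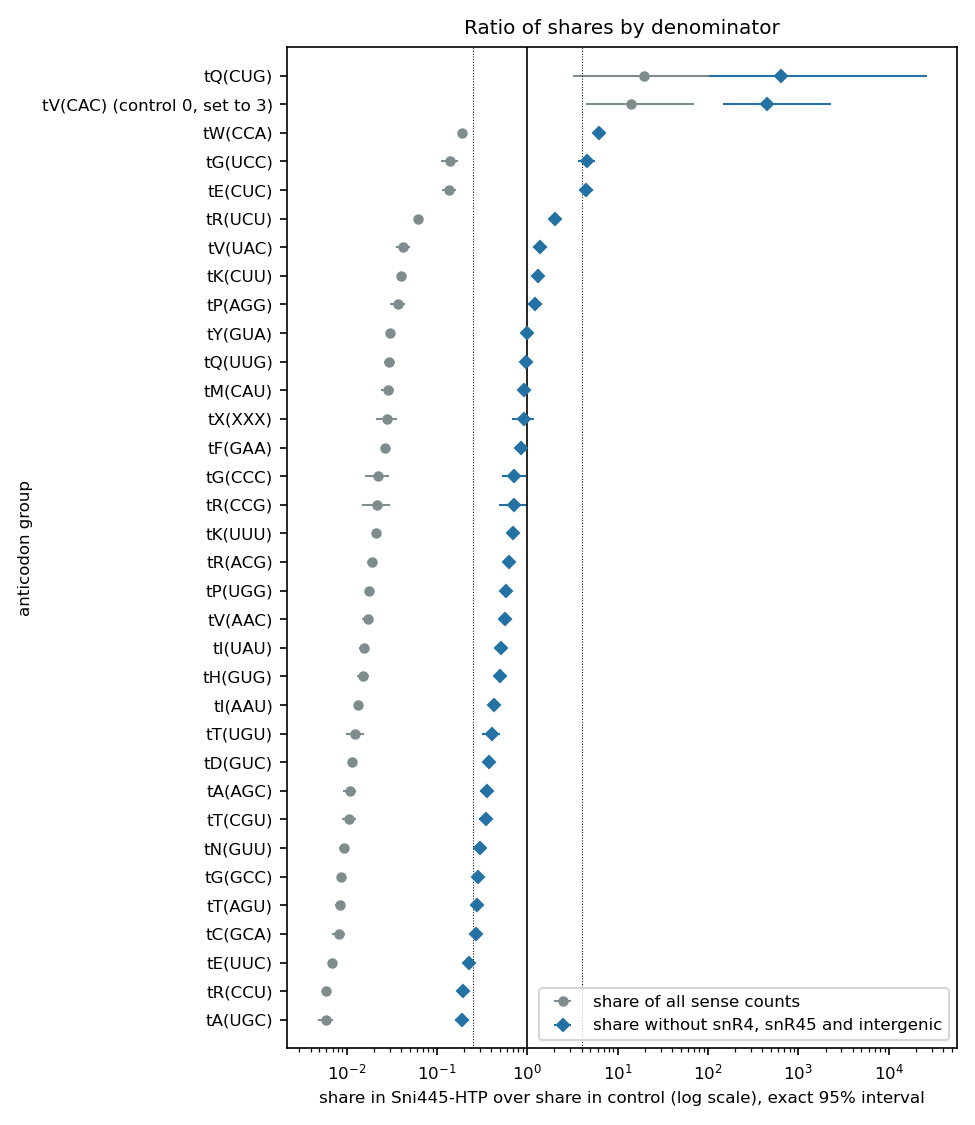
Share of each anticodon group with Sni445-HTP over its share in the control, on a log axis with exact 95% intervals, over all sense counts (circles) and over the counts without snR4, snR45 and intergenic features (diamonds), with dotted lines at a 4-fold difference. The order of groups is the same under both, with tA(UGC) lowest and tQ(CUG) highest, and 9 of 34 diamonds lie above 1.

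Tryptophan has a single anticodon in yeast, and tW(CCA) led the groups with at least 100 reads in a library by its ratio. It had 431 reads from 240 cDNAs with Sni445-HTP, against 1941 reads from 154 cDNAs in the control. Its 6 genes had 55 to 98 reads each with Sni445-HTP, against 168 to 699 in the control. All 6 encode the same mature sequence, and reads that match several copies were placed at random. The spread over copies therefore does not show how many genes gave the reads. The remaining-count ratio was 6.16 (5.53 to 6.84), and the ratio in cDNAs, as shares of all cDNAs of each library, was 3.89. It made up 3.05% of the set with Sni445-HTP, against 0.351% in the control.

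The glutamate tRNAs differed from each other. tE(CUC), which reads GAG codons, had 145 reads from 51 cDNAs with Sni445-HTP, against 903 reads from 54 cDNAs in the control, a remaining-count ratio of 4.45 (3.71 to 5.31). Its gene on chromosome IV, tE(CUC)D, had 66 reads with Sni445-HTP, against 277 in the control, and tE(CUC)I had 79 with Sni445-HTP, against 626 in the control. tE(UUC), which reads GAA codons, had 399 reads from 223 cDNAs with Sni445-HTP, against 48653 reads from 2181 cDNAs in the control, a ratio of 0.227 (0.205 to 0.251). Per read on tE(UUC), reads on tE(CUC) were 19.6 times as frequent with Sni445-HTP as in the control (odds ratio, exact 95% interval 15.9 to 24.0). In cDNAs the ratios were 2.35 for tE(CUC) and 0.255 for tE(UUC), so the order was kept.

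Among the glycine tRNAs, tG(UCC), encoded by the frameshift suppressor loci SUF1, SUF4 and SUF6, had 103 reads from 48 cDNAs with Sni445-HTP, against 628 reads from 4 cDNAs in the control. Its remaining-count ratio was 4.55 (3.66 to 5.61) in reads and the ratio in cDNAs was 29.9, a count that rests on those 4 control cDNAs. SUF4 had 342 control reads from 1 cDNA and SUF1 had 194 from 1 cDNA, so the control value rested on few distinct cDNAs. The main glycine group, tG(GCC), had 367 reads with Sni445-HTP, against 35866 in the control, a ratio of 0.284 (0.255 to 0.314). The odds ratio of tG(UCC) to tG(GCC) was 16.0 (12.6 to 20.3).

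A pair of groups had at most 1 control read, so that only a higher share with Sni445-HTP could be measured in them. tV(CAC), which reads GUG codons, had 30 reads on tV(CAC)D and 19 on tV(CAC)H with Sni445-HTP, 49 reads from 17 cDNAs, against 0 control reads. With the control set to a floor of 3 counts for the library, its share of all sense counts was 13.9-fold higher (4.48 to 69.7). Its share of the remaining counts was 453-fold higher (146 to 2271). Both intervals of tV(CAC) treat the floor as an observed count, and its values depend on the floor. At a floor of 1 count, its ratio over all sense counts was 41.7. Its isoacceptors had reads in both libraries, 131 with Sni445-HTP against 2623 in the control for tV(UAC), and 195 with Sni445-HTP against 9638 in the control for tV(AAC). tQ(CUG), the single gene CDC65, had 23 reads from 10 cDNAs with Sni445-HTP, against 1 in the control, a remaining-count ratio of 638 (104 to 26265), and it was singled out after its values were seen. Its counterpart tQ(UUG) had 196 reads with Sni445-HTP, against 5599 in the control, a remaining-count ratio of 0.970 (0.837 to 1.12), and 1.92 without tQ(UUG)L, the copy with most control reads. Over all sense counts the ratios were 19.6 (3.18 to 806) for tQ(CUG) and 0.0298 for tQ(UUG). Other groups with few Sni445-HTP reads were well covered in the control, as tG(CCC), with 44 reads with Sni445-HTP, against 1697 in the control. Identity between tQ(CUG) and the first tQ(UUG) sequence was 65 of 72 aligned bases, and between tV(CAC) and tV(UAC) 59 of 74.

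At the low end, tA(UGC), which reads GCA codons, had 113 reads with Sni445-HTP, against 16422 in the control, a remaining-count ratio of 0.191 (0.157 to 0.229). Its 5 genes had 18 to 26 reads each with Sni445-HTP, against 1379 to 5993 in the control. tR(CCU), the single gene HSX1, had 272 reads from 41 cDNAs with Sni445-HTP, against 38601 reads from 281 cDNAs in the control, a ratio of 0.195 (0.173 to 0.220). These groups had the smallest ratios, with overlapping intervals. After tE(UUC), described above, tC(GCA) followed with 144 reads with Sni445-HTP, 14827 in the control and a ratio of 0.269, and tT(AGU) with 234 reads with Sni445-HTP, 23314 in the control and a ratio of 0.278. The related tT(CGU) had 139 reads with Sni445-HTP, against 11118 in the control, a ratio of 0.347.

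Summed by amino acid, 3 of 18 had a remaining-count ratio above 1, tryptophan with 6.16, arginine with 1.32 and glutamine with 1.08 (0.943 to 1.24). Tyrosine was at 0.999 (0.899 to 1.11). Alanine had the lowest, 0.261, with 273 reads with Sni445-HTP, against 28947 in the control, followed by cysteine with 0.269, asparagine with 0.302, glutamate with 0.304 and threonine with 0.314. Some of these sums rested on 1 gene copy. Without tR(UCU)J1, the copy with most reads with Sni445-HTP, arginine had 2758 reads with Sni445-HTP, against 118430 in the control, and its ratio turned to 0.646. Without tN(GUU)K the other 9 asparagine genes had 101 reads with Sni445-HTP, against 186 in the control, and the ratio turned to 15.1. When the copy with most Sni445-HTP reads was left out of each amino acid, 3 of 18 ratios crossed 1, those of arginine, asparagine and glutamine, and tryptophan and asparagine were then above 1. When the copy with most control reads was left out instead, 5 of 18 crossed 1, those of asparagine, methionine, phenylalanine, tyrosine and valine, and 8 were above 1. Tryptophan was above 1 either way, with 5.40 and 7.81, but its genes share a mature sequence over which reads were placed at random. Lysine had 1636 reads with Sni445-HTP, against 51041 in the control, a ratio of 0.889, and its groups differed, with 1.31 for tK(CUU), part of which yeast imports into mitochondria, and 0.694 for the intron-containing tK(UUU). tK(CUU) had 761 reads with Sni445-HTP, against 16067 in the control, and tK(UUU) had 875 with Sni445-HTP, against 34974 in the control. Aspartate tRNA tD(GUC) had 612 reads with Sni445-HTP, against 45340 in the control, a ratio of 0.374. Phenylalanine tRNA tF(GAA) had 409 reads with Sni445-HTP, against 13130 in the control, a ratio of 0.864.

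Arginine made up 42.8% of the set with Sni445-HTP, against 22.9% in the control, and tR(UCU), which reads AGA codons, accounted for most of it. It had 5475 reads from 396 cDNAs with Sni445-HTP, against 75021 reads from 2372 cDNAs in the control, a remaining-count ratio of 2.02 (1.97 to 2.08). Of the Sni445-HTP reads, 3286 lay on a single copy, tR(UCU)J1, which had 8249 reads in the control. That copy held 23.3% of all reads of the set with Sni445-HTP, against 1.49% in the control, and the next highest gene with Sni445-HTP had 470 reads. Of its Sni445-HTP reads, 3197 were within the read length limit of 30 and came from 17 distinct cDNAs, 188 reads per cDNA, against 198 reads from 10 cDNAs, 19.8 per cDNA, in the control. Without tR(UCU)J1 the group had 2189 reads with Sni445-HTP, against 66772 in the control, a remaining-count ratio of 0.909. Over all features the ratio of the whole group was 0.416 in cDNAs and 0.0621 in reads, below 1 in both. Over the remaining counts, tR(UCU) thus stood above the control in reads through few distinct cDNAs of 1 copy.

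Copies of a tRNA gene that encode the same mature sequence had widely different counts. In R64 the mature sequence was identical in all genes of 18 of the 29 groups with several genes, and a read within it matches every copy. The 10 tN(GUU) genes are such a group. tN(GUU)K had 202 reads with Sni445-HTP, against 27634 in the control, whereas the other 9 had 5 to 20 with Sni445-HTP, against 5 to 85 in the control. tN(GUU)K thus held 66.7% of the group with Sni445-HTP, against 99.3% in the control. Among the 10 genes it was the only one followed by C in R64, the base with which CCA begins. The last bases of genes and the bases behind them are shown, as 10 nt on each side of the gene end, with the first base behind the gene in capitals.
tN(GUU)K: actggggtcgCttattttta
tN(GUU)L: actggggtcgTttatttttt
tN(GUU)P: actggggtcgTattttttac
tR(UCU)B: atcgtgagtgCtttgtttct
tR(UCU)E: atcgtgagtgTtttttttat
tR(UCU)K: atcgtgagtgTtttttacac
These stretches lie at chrXI:74688-74707 (plus strand), chrXII:975973-975992 (minus), chrXVI:810740-810759 (plus), chrII:405940-405959 (plus), chrV:138728-138747 (plus) and chrXI:162477-162496 (minus), in the order given.

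The 11 tR(UCU) genes, all with the same mature sequence, showed the same order. The 4 genes known to be followed by C had 316 to 3286 reads with Sni445-HTP, against 7987 to 16653 in the control. By copy, tR(UCU)B had 451 reads with Sni445-HTP, against 16653 in the control, tR(UCU)D had 316 with Sni445-HTP, against 7987 in the control, and tR(UCU)J2 had 470 with Sni445-HTP, against 10689 in the control. The genes followed by T were low, with 20 reads with Sni445-HTP, against 112 in the control for tR(UCU)E, and 15 with Sni445-HTP, against 91 in the control for tR(UCU)K. On chromosome VII, where 2 of 3 genes are followed by C, the listed copies had 267, 317 and 12 reads with Sni445-HTP and 11829, 8766 and 108 in the control. On chromosome XIII, where 1 of 2 is followed by C, they had 20 and 301 reads with Sni445-HTP and 163 and 10374 in the control. The names of these 5 copies could not be tied to R64 genes, so they were not assigned. On both chromosomes the number of high copies equalled that of the genes followed by C. The 4 assigned genes followed by C are also those with a tD(GUC) gene 10 nt behind them on the same strand, the layout from which yeast makes a joint precursor. None of the tR(UCU) genes on chromosomes VII and XIII has this layout in R64. The high copies there had 267, 317 and 301 reads with Sni445-HTP, against 11829, 8766 and 10374 in the control. The part of the layout in the count of a copy was not tested.

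Of the 8 groups in which only some genes are followed by C, others showed the same order and some did not. SUF9, the only proline tP(UGG) gene outside chromosome XV followed by C, had 154 reads with Sni445-HTP, against 10715 in the control, the most of its group in both libraries. Of tP(UGG)O1 and tP(UGG)O3 on chromosome XV, 1 is followed by C. They had 132 and 87 reads with Sni445-HTP and 3566 and 2559 in the control. SUF11, followed by T, had 65 with Sni445-HTP, against 5802 in the control, so the order did not hold there in the control. Of the tI(AAU) genes on chromosome IX, 1 of 2 is followed by C, and the listed copies differed, with 177 reads with Sni445-HTP against 17408 in the control on tI(AAU)I1, and 13 with Sni445-HTP against 306 in the control on tI(AAU)I2. The remaining tI(AAU) genes had 8 to 24 reads with Sni445-HTP, against 270 to 1319 in the control. On chromosome IV 1 of 2 tG(GCC) genes is followed by C, and tG(GCC)D2 had 90 reads with Sni445-HTP, against 13097 in the control, the most of its group in both libraries. In tQ(UUG) the order was not seen in the control. Of its 3 genes on chromosome IV 1 is followed by C, and the listed copies had 19, 17 and 41 reads with Sni445-HTP and 240, 338 and 448 in the control, while tQ(UUG)L, followed by T, had 40 with Sni445-HTP, against 3351 in the control. In tP(AGG) the pattern differed between libraries. SUF10, followed by C, had 72 reads with Sni445-HTP, against 665 in the control, while SUF2, followed by A, had 46 with Sni445-HTP, against 2039 in the control. Over the set, the 12 genes assigned to a following C had a median of 155.5 reads with Sni445-HTP, against 7840 in the control. The 182 genes assigned to another base had a median of 26.0 with Sni445-HTP, against 1293 in the control. A following C occurred in 19 of the 236 genes, and 42 genes could not be assigned. The part of the following base in the count of a copy was not tested, since the reads themselves were not used here.

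**Figure D3:**
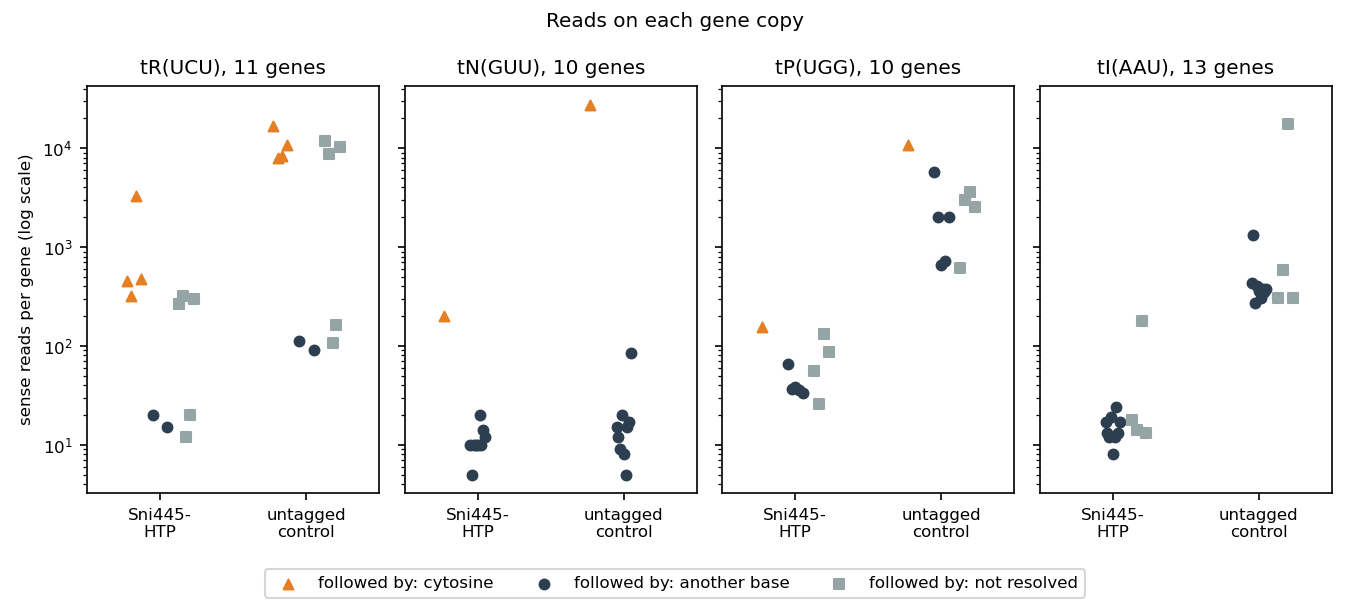
Sense reads on each gene copy, on a log axis, of tR(UCU), tN(GUU), tP(UGG) and tI(AAU), with Sni445-HTP on the left and the untagged control on the right of each panel. Triangles mark genes followed by cytosine in R64, circles genes followed by another base and squares genes that could not be assigned. The triangle of tN(GUU), at 202 reads with Sni445-HTP against 27634 in the control, stands above the circles, at 5 to 20 with Sni445-HTP against 5 to 85 in the control.

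Short reads made up more of the set with Sni445-HTP. The count tables exist under read length limits of 1000 and 30, for which their headers give no unit, and the share of reads within the 30 limit was 53.1% (52.2 to 53.9) with Sni445-HTP, against 15.2% (15.1 to 15.3) in the control. Over all mapped reads the shares were closer, 47.1% with Sni445-HTP, against 41.0% in the control. Without tR(UCU), the set had 31.0% with Sni445-HTP, against 17.0% in the control, and in distinct cDNAs the whole set had 32.6% with Sni445-HTP, against 11.9% in the control. Serine and leucine tRNAs had 35.9% with Sni445-HTP, against 12.5% in the control. Of the 28 groups with at least 100 reads in both libraries, 20 had a higher share with Sni445-HTP and 6 a higher share in the control with intervals that did not overlap. These intervals count PCR copies as independent reads. The same count was not made over all features, so it has no background to be set against. The median over these groups was 34.2% with Sni445-HTP, against 9.53% in the control.

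The spread between groups was much wider in the control. With Sni445-HTP the groups lay between 13.2% on tR(CCU) and 87.8% on tR(UCU). tV(AAC) had 56.4% with Sni445-HTP, against 49.8% in the control, and tD(GUC) 55.1% with Sni445-HTP, against 46.9% in the control. tY(GUA) was low with 16.4% with Sni445-HTP, against 17.0% in the control, and tK(UUU) had 16.1% with Sni445-HTP, against 0.252% in the control. Some groups lay at 100% or near 0% in the control. tG(UCC) had 45.6% with Sni445-HTP, whereas all 628 of its control reads were within the 30 limit. tP(AGG) had 17.8% with Sni445-HTP, against 2703 of 2704 reads in the control, and tI(UAU) had 46.8% with Sni445-HTP, against 77.6% in the control. At the other end, tV(UAC) had 39.7% with Sni445-HTP, against 0 of 2623 reads in the control, and tT(AGU) had 27.8% with Sni445-HTP, against 4 of 23314 reads in the control. tR(CCG) had 5 of 33 reads within the limit with Sni445-HTP, against 0 of 1295 in the control. The control thus ran to either end, while the Sni445-HTP values of these groups did not.

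**Figure D4:**
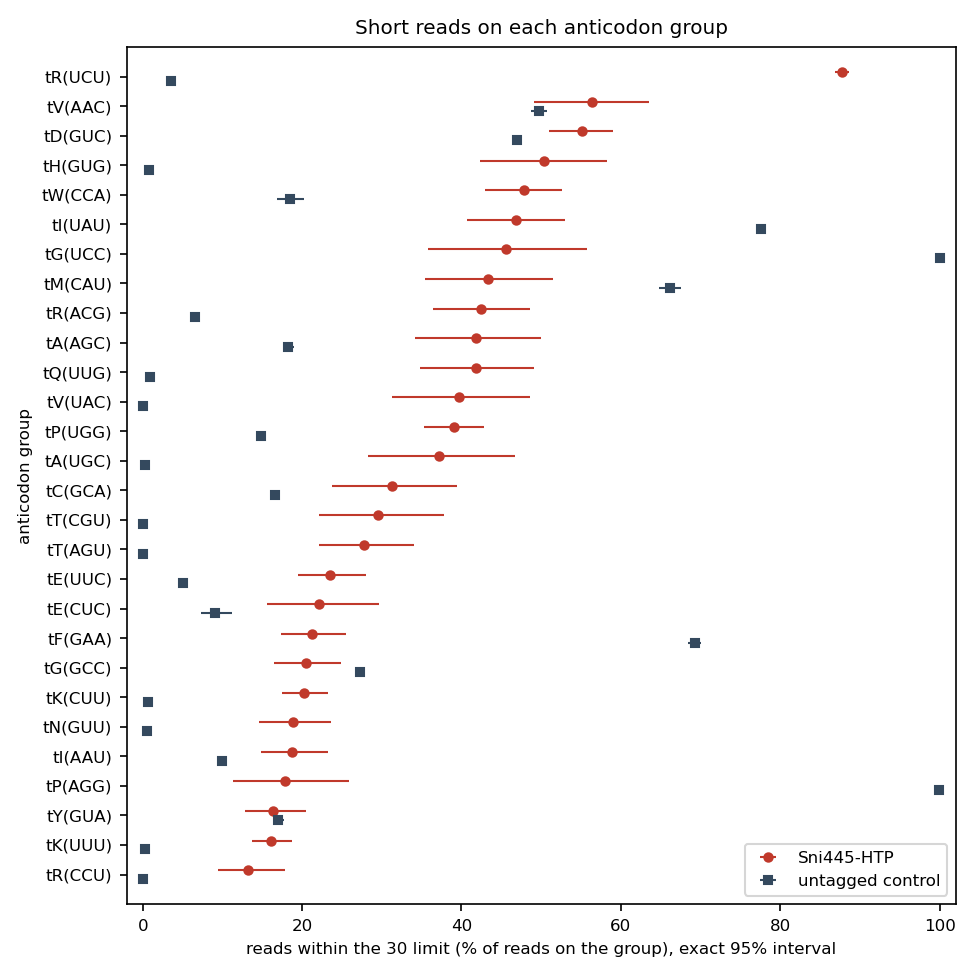
Percent of reads within the read length limit of 30 for the 28 anticodon groups with at least 100 reads in both libraries, with exact 95% intervals, circles for Sni445-HTP and squares for the untagged control. tR(UCU) is highest with Sni445-HTP at 87.8%, against 3.57% in the control, and tG(UCC) and tP(AGG) lie at 100% and nearly so in the control.

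Each distinct cDNA was read 3.27 times on average with Sni445-HTP and 32.2 times in the control. Over all features, snR4 and snR45 included, the relation was the other way, with 83.7 reads per cDNA with Sni445-HTP, against 28.6 in the control. With Sni445-HTP snR4 had 664 and snR45 309, against 169 and 148 in the control. The low value was not particular to the set. Serine and leucine tRNAs had 2.08 with Sni445-HTP, against 30.5 in the control. The 5S copies had 2.96 with Sni445-HTP, against 25.9 in the control. The median over the 31 groups with at least 10 cDNAs in both libraries was 2.26 with Sni445-HTP, against 29.99 in the control. A cDNA may be counted on several copies, which lowers these ratios, most in groups of many genes. The highest values with Sni445-HTP were 13.8 on tR(UCU), 6.63 on tR(CCU) and 5.15 on tT(CGU), and the lowest were 1.63 on tY(GUA), 1.65 on tA(AGC) and 1.71 on tV(AAC). In the control, tR(CCU) had 137, tT(CGU) 90.4 and tI(UAU) 60.9 among groups with at least 10 cDNAs, and tW(CCA) had 12.6, tX(XXX) 13.4 and tE(CUC) 16.7. Groups with a single gene, where a cDNA has 1 gene to fall on, were found at both ends in the control only. With Sni445-HTP they had 2.29 or more, above the median of 2.26. The lowest groups there, tY(GUA), tA(AGC) and tV(AAC), have 8, 11 and 14 genes. Per cDNA of the copy with the most, these had 9.5, 12.3 and 16.25 reads, above the 6.63 of tR(CCU). tR(CCU) and tT(CGU) were high in both libraries, whereas tR(CCG) had 2.75 with Sni445-HTP, against 28.2 in the control, and tX(XXX) 2.29 with Sni445-HTP, against its low 13.4 in the control.

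Methionine has an initiator tRNA that starts translation and an elongator tRNA with the same anticodon. tM(CAU) as a whole had 157 reads with Sni445-HTP, against 4678 in the control, a remaining-count ratio of 0.930 (0.788 to 1.09). The 5 initiator genes, IMT1 to IMT4 and the identical tM(CAU)C, had 83 reads with Sni445-HTP, of which 31 were within the 30 limit, and 2285 in the control, all of them within the limit. Of these control reads 1790 lay on IMT4 and came from 1 cDNA. The 5 elongator genes, EMT1 to EMT5, had 74 reads with Sni445-HTP, 37 within the limit, and 2393 in the control, 812 within it. The remaining-count ratios were 1.01 (0.799 to 1.25) for the initiator and 0.857 (0.671 to 1.08) for the elongator, with overlapping intervals. This likeness in reads rested on the 1 cDNA of IMT4. Without IMT4 the initiator genes had 74 reads with Sni445-HTP, against 495 in the control, a ratio of 4.14 (3.20 to 5.30). In cDNAs the initiator genes had 44 with Sni445-HTP, against 7 in the control, which gave a cDNA ratio of 15.7, and the elongator genes had 32 with Sni445-HTP, against 123 in the control, a ratio of 0.649 (0.425 to 0.964). Among the elongator genes, EMT3 and EMT4, which are followed by C, had 30 and 23 reads with Sni445-HTP and 770 and 835 in the control. The other elongator genes had 4 to 11 with Sni445-HTP, against 203 to 370 in the control.

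The 6 groups with an intron in R64, tF(GAA), tI(UAU), tK(UUU), tP(UGG), tW(CCA) and tY(GUA), had remaining-count ratios between 0.508 and 6.16 with a median of 0.779. tP(UGG) had 664 reads with Sni445-HTP, against 31652 in the control, a ratio of 0.582, and tY(GUA) had 379 with Sni445-HTP, against 10521 in the control, a ratio of 0.999. Over the 28 groups without an intron the median was 0.592. In cDNAs summed over copies, 4 of 6 groups with an intron and 9 of 28 without had a ratio above 1. Among the 4, tF(GAA) fell from 1.62 to 0.727 in cDNAs of the copy with the most. The others, tI(UAU), tW(CCA) and tY(GUA), stayed above 1. The same count was not made over all features. The 4 groups of a known anticodon with a single gene, tQ(CUG), tR(CCG), tR(CCU) and tT(CGU), had a median of 0.527, and the 29 with several genes 0.622. tR(CCG), encoded by TRR4, had 33 reads with Sni445-HTP, against 1295 in the control, a ratio of 0.706 (0.484 to 0.997). The gene of undetermined specificity, tX(XXX)D, had 55 reads with Sni445-HTP, against 1673 in the control, a ratio of 0.911 (0.684 to 1.19), and of the set it alone has CCG at bases 11 to 13.

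Mitochondrial tRNAs, made in another compartment by another polymerase, had 35 reads on 9 genes with Sni445-HTP, against 0 in the control, too few to place beside the nuclear groups. RPR1, SNR52 and SNR6, further transcripts of RNA polymerase III, ran higher than the tRNAs as a whole over the remaining counts. RPR1, the RNA of RNase P, which trims the 5′ end of tRNAs, had 159 reads with Sni445-HTP, against 1085 in the control, a ratio of 4.06 (3.42 to 4.80). SNR52, a guide snoRNA, had 299 reads with Sni445-HTP, against 1479 in the control, a ratio of 5.60 (4.93 to 6.35), and SNR6, the U6 snRNA, had 389 reads with Sni445-HTP, against 0 in the control. Only tW(CCA), tG(UCC) and tE(CUC), among the 28 groups of the set with at least 100 Sni445-HTP reads, had ratios as high as that of RPR1.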

How the data were processed

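For each feature, the deposited tables hold counts of sense and antisense reads and how many distinct cDNAs these came from, made by the authors with pyReadCounters (Counters 1.4.4 per the file headers) under read length limits of 1000 and 30, 1 table per library and limit. The authors checked reads with FastQC 0.12.1, aligned them with Novoalign 3.09.00 to genome EF2.59, placed reads with several sites at random and counted a read on each feature it overlaps. Counts of a feature under the 30 limit never exceeded those under the 1000 limit, and the sense counts summed to the total in each header. Labels name a MiSeq and the methods of the study a NextSeq.

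Genes were assigned to anticodons by name or, for genetic names, by the R64 annotation, whose mature sequences and coordinates are credited to it and were not tied to EF2.59. Of the 236 genes, 37 matched R64 by gene name and 103 by chromosome and anticodon, 54 had several candidates with the same next base, and 42 stayed unassigned. Shares have exact Clopper-Pearson and ratios exact conditional 95% intervals (Python 3.11.15, numpy 2.4.6, scipy 1.17.1, plots with matplotlib 3.10.9). A group was called with at least 100 reads in the higher library and a 4-fold difference, and a count of 0 was set to 3. No test between strains was possible with 1 library each. The ratio and call steps were tested on simulated counts. TMM factors came from edgeR 4.0.16 in R 4.3.3.

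Groups named with values are the 10 with most reads in each library, the 5 largest and 5 smallest ratios with at least 100 reads in either library, those with 0 reads in a library, the 3 largest and 3 smallest percents within the 30 limit in each library with at least 100 reads there and reads per cDNA with at least 10 cDNAs, and tM(CAU), with further groups named as isoacceptors or list members. The set, the lists and the rule were chosen with earlier results of these data known. Alternatives were other counts, denominators, scalings, minimums and left-out groups or gene copies.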

Additional observations from a re-analysis of the deposited data

How the results depend on the processing

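The ratio of shares of the whole set, 0.0217 over all sense counts, stayed below 1 under all 12 alternatives run, and its size followed the denominator. It was 0.0555 under the 30 limit, 0.0188 with sense and antisense reads together, 0.0148 over mapped reads, 0.00674 without rRNA features in the denominator, 0.708 without snR4, snR45 and intergenic features, 0.814 with median-ratio and 0.675 with TMM scaling. It was 0.626 in distinct cDNAs and 0.619 in those of the copy with the most, 0.0154 without tR(UCU) and 0.0191 with the 8 SUP genes kept in by name alone. The count of lower groups, 32, became 17 of the 19 groups that reached the minimum under the 30 limit, 0 of 26 in cDNAs, and of 32 groups it became 2 with median-ratio scaling, and 3 with TMM scaling or without snR4, snR45 and intergenic features. The count of higher groups, 0, became 1 at a minimum of 30 reads, which was tV(CAC), and 3 under the same scalings and denominator. The odds ratio against serine and leucine tRNAs, 2.92, was 3.55 under the 30 limit, 1.96 in cDNAs, 2.07 without tR(UCU), 2.03 by names alone, 6.11 against serine and 1.25 against leucine tRNAs alone, and 0.883 against leucine tRNAs without tR(UCU). The difference in percent within the 30 limit, 37.8 points, was 20.7 in cDNAs, 14.0 without tR(UCU) and 24.7 as a difference of medians. The ratio of reads per cDNA, 0.102, lay between 0.0683 and 0.129. The alternatives with tR(UCU) left out of the ratio, names alone, tX(XXX)D left out, the copy with the most cDNAs, serine or leucine alone, and a gene copy left out were chosen after seeing the data. Of the groups named by the rule, those with a ratio below 1 over all sense counts passed 1 as follows. Without snR4, snR45 and intergenic features, with median-ratio and with TMM scaling the ratios were 6.16, 7.08 and 5.87 for tW(CCA), 4.55, 5.23 and 4.34 for tG(UCC), 4.45, 5.12 and 4.25 for tE(CUC), 2.02, 2.33 and 1.93 for tR(UCU), 1.38, 1.59 and 1.32 for tV(UAC), 1.31, 1.51 and 1.25 for tK(CUU), and 1.21, 1.39 and 1.15 for tP(AGG). With median-ratio scaling alone they were 1.15 for tY(GUA), 1.07 for tM(CAU) and 1.05 for tX(XXX). In distinct cDNAs and in cDNAs of the copy with the most, the ratios were 29.9 and 27.4 for tG(UCC), 3.89 and 4.30 for tW(CCA), 2.35 and 2.24 for tE(CUC), 1.97 and 2.10 for tP(AGG), 1.72 and 1.62 for tK(CUU), 1.46 and 1.03 for tM(CAU), 1.29 and 1.26 for tY(GUA), 1.27 and 1.34 for tI(UAU), 1.07 and 1.03 for tV(UAC), and 1.62 in distinct cDNAs for tF(GAA). Under the 30 limit they were 10.8 for tV(UAC), 10.1 for tT(AGU), 5.11 for tT(CGU), 4.05 for tX(XXX), 3.20 for tR(CCU), 1.12 for tR(UCU) and 1.04 for tR(CCG), with a control of 0 set to 3 in tV(UAC) and tR(CCG). With the floor for tV(CAC) at 1 count its ratio was 41.7. Of the remaining-count ratios, those that crossed 1 without the copy with most control reads became 1.21 for phenylalanine, 1.42 for methionine, 15.1 for asparagine, 1.05 for valine, 1.17 for tyrosine and 1.92 for tQ(UUG), and without the copy with most Sni445-HTP reads 0.646 for arginine, 0.909 for tR(UCU), 15.1 for asparagine, 0.958 for glutamine, 0.625 for tP(AGG) and 0.744 for the initiator. No paired analysis was possible because each strain has 1 library. The causes of these changes were not tested, beyond what each alternative leaves in or out. Depth limits tV(CAC), tQ(CUG), tR(CCG) and tG(CCC), with under 50 reads each with Sni445-HTP. A difference between strains cannot be told apart from one between libraries.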
